A study of Mus musculus with 13 samples.

Results

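The nuclear genes that encode subunits of the oxidative phosphorylation machinery, together with a few genes named after it, were examined across 13 RNA-seq libraries of mouse small intestine in 6 groups. Members were taken by symbol from the 24054 genes of the deposited count tables: the Nduf genes of complex I, the Sdh genes of complex II, the Uqcr genes of complex III, the Cox4 to Cox8 genes of complex IV and the Atp5 genes of complex V, with processed pseudogene symbols left out. This gave 84 genes, of which 37 were placed in complex I, 4 in complex II, 8 in complex III, 18 in complex IV and 17 in complex V. The placement followed the symbol. Ndufa4 and its paralogue Ndufa4l2 were therefore counted with complex I although the Ndufa4 protein is known as a subunit of complex IV, Cox7a2l is known as a supercomplex assembly factor, and Atp5s and Atp5sl are not core subunits of the ATP synthase. The 13 subunit genes of the mitochondrial genome were not analysed here.

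Oxidative phosphorylation is the process by which the inner mitochondrial membrane turns the energy of NADH and succinate into ATP. Complexes I and II pass electrons to ubiquinone, complex III passes them on to cytochrome c, complex IV passes them to oxygen, and complex V, the ATP synthase, uses the proton gradient that complexes I, III and IV build. Crypt stem cells, Paneth cells and villus enterocytes are known to differ in how much they rely on glycolysis and on respiration, and Apc, the gene deleted in this study, restrains Wnt signalling, which maintains the stem cells.

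Organoids were grown from ileal crypts and collected whole, at a time point of 10 days; they were labelled WT, Atoh1CreERT2;Apcfl/fl;Rosa26tdTomato (Sec-Cre Apc-null) or Lgr5eGFP-CreERT2;Apcfl/fl;Rosa26tdTomato (ISC-Cre Apc-null), with 2 libraries each. Intestinal stem cells (ISCs) sorted by flow cytometry came from the ileum at day 21 after induction, with the genotype Apcfl/fl;Lgr5DTR-GFP;Rosa26tdTomato and no Cre for the control (WT ISCs, 2 libraries) and Atoh1CreERT2;Apcfl/fl;Lgr5DTR-GFP;Rosa26tdTomato for the Sec-Cre Apc-null ISCs (2 libraries). A further 3 libraries held ISCs of the duodenum at day 14 with the genotype Lgr5eGFP-CreERT2;Apcfl/fl;Rosa26tdTomato (ISC-Cre Apc-null duodenal ISCs). All mice were adult and all groups, the controls included, received 2 doses of 1 mg tamoxifen. Atoh1 marks the secretory lineage and Lgr5 the stem cells, so the Cre of each model acts in the cells in which its driver gene is active. The shared extraction protocol names the duodenum for all samples. It also gives a TrypLE Select digestion for the Lgr5-driven Apc-null samples and a collagenase digestion for the others. The labels do not say whether replicates are different mice or cultures; the p-values therefore speak of the variation among these libraries, some of which may be technical.

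Gene counts totalled between 11524335 and 45516228 per library. Apc lay between 185 and 243 CPM (counts scaled to a common library size) in the 4 Apc-null organoid libraries and between 139 and 156 CPM in the WT organoids, between 48.2 and 107 CPM in the Sec-Cre Apc-null ISCs, between 114 and 124 CPM in the WT ISCs, and between 165 and 453 CPM in the duodenal ISCs; whole-gene counts do not read the floxed part alone, so they do not check the deletion. Replicate 1 of the Sec-Cre Apc-null ISCs stood apart, with 57.0% of its reads unmapped and 51.0% of its gene counts in 10 genes, and its scaling factor was 0.352. Summed intestinal stem cell markers, a check of the sorted cell type, lay between 1685 and 2367 CPM in the Sec-Cre Apc-null ISCs, between 2949 and 3391 CPM in the duodenal ISCs and between 5331 and 5563 CPM in the WT ISCs. The 3 duodenal libraries were strand-specific (98.5% to 98.9% of counts on the second strand), which the other 10 were not.

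Many of these genes are known to carry binding motifs of nuclear respiratory factor 1 (NRF1) and of the ETS factor GABP close to their start sites, so the RefSeq promoter windows (250 bases before to 50 after each start, GRCm38.p6) were searched on both strands for the NRF1 motif GCGCANGCG and the ETS motif CCGGAAG. A window was found for 69 of the 84 members. The NRF1 motif was present in 20 of them (29.0%), against 7.03% of all 27025 genes with a window and 14.2% of those tested in the organoids. The ETS motif was present in 16 members (23.2%), against 9.93% of all genes and 18.7% of the tested ones. By complex, the NRF1 motif was held by 8 of 32 members of complex I, 2 of 3 of complex II, 2 of 5 of complex III, 1 of 13 of complex IV and 7 of 16 of complex V. The 2 motifs do not overlap in their letters, and a match describes the sequence only. The stretches printed here are examples from the members with a match, and Ndufa11 and Atp5e among them have no level or fold change given below. Capitals mark the motif and lower case the bases beside it, and 10 capitals in a row mark overlapping NRF1 matches on the 2 strands. The NRF1 motif in succinate dehydrogenase subunits, complex I, complex IV and the ATP synthase was read as follows, with the gene's strand given 5′ to 3′.
Sdha (chr13:74350277-74350305, minus strand): ggggcgtgttGCGCAGGCGcagaatcttc
Sdhd (chr9:50603910-50603938, minus strand): tcgctggggtGCGCACGCGcggtggcagc
Ndufa11 (chr17:56717692-56717720, plus strand): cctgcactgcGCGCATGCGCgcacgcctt
Cox6a1 (chr5:115349057-115349085, minus strand): cggataaagtGCGCAGGCGctggagttcc
Atp5c1 (chr2:10080433-10080459, minus strand): ctgagctcccGCGCACGCGcactgagt
Atp5h (chr11:115420042-115420070, minus strand): gaccccgacgGCGCAGGCGccgcgcccgc
Atp5k (chr5:108434430-108434458, minus strand): ttcactgcgGCGCATGCGCctttctggct
The ETS motif, here on the opposite strand and so read as CTTCCGG, was found in a complex IV and a complex V gene.
Cox6b1 (chr7:30626126-30626152, minus strand): cctctcgcagCTTCCGGccagtcggaa
Atp5e (chr2:174464187-174464213, minus strand): acggccacagCTTCCGGtagccgctcg
The stretches of Sdha, Sdhd, Atp5c1, Atp5k and Cox6b1 overlap an annotated exon and those of Ndufa11, Cox6a1, Atp5h and Atp5e do not.

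Of the 84 members, 78 had enough counts to be tested in each fit: 36 of complex I, 4 of complex II, 8 of complex III, 13 of complex IV and 17 of complex V. The 6 others were Ndufs5 of complex I and the complex IV genes Cox4i2, Cox6a2, Cox7b2, Cox8b and Cox8c, most of them known as isoforms of lung, muscle, brown fat or testis. Ndufs5 and Cox8c had no count in any of the 13 libraries. On plain library sizes this allows a level of up to 0.0659 to 0.26 CPM depending on the library's depth (3 counts, counting error only). On the scaled sizes of the printed CPM the limit is higher where the scaling factor is below 1, as in Sec-Cre Apc-null ISC replicate 1 (0.352). Ndufs5 encodes a constitutive complex I subunit and shares 47.3% of the 31-base words of its RNA with the gene model BC002163, so its 0 counts are uncertain. The same holds, to a smaller degree, for 26 tested members with over 20% of their words in another gene, among them Atp5g2 (100%) and Atp5l (85.4%), whose reads the counting may have split or dropped.

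The summed level of the 84 members was 13412 and 13528 CPM in the WT organoids, 9239 and 9568 CPM in the Sec-Cre Apc-null organoids and 8195 and 7869 CPM in the ISC-Cre Apc-null organoids. It was 16057 and 16405 CPM in the WT ileal ISCs, 44889 and 40567 CPM in the Sec-Cre Apc-null ileal ISCs, and 10717, 12368 and 10462 CPM in the ISC-Cre Apc-null duodenal ISCs. The groups did not overlap within a material: Apc-null organoids were lower than WT organoids, Sec-Cre Apc-null ileal ISCs were higher than WT ISCs, and the duodenal ISCs were the lowest of the sorted cells. The ratios of the group means to the WT of the same material were 0.698, 0.596, 2.63 and 0.689 in that order. CPM here uses library sizes scaled by TMM (trimmed mean of M-values) over all 13 libraries. On plain library sizes the ratio in the Sec-Cre Apc-null ileal ISCs was 1.51, with the members taking 1.58% of all counts in replicate 1 and 3.55% in replicate 2, against 1.66% to 1.74% in the WT ISCs. In whole organoids and sorted pools, fewer cells of a type and less RNA per cell cannot be told apart.

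**Figure D1:**
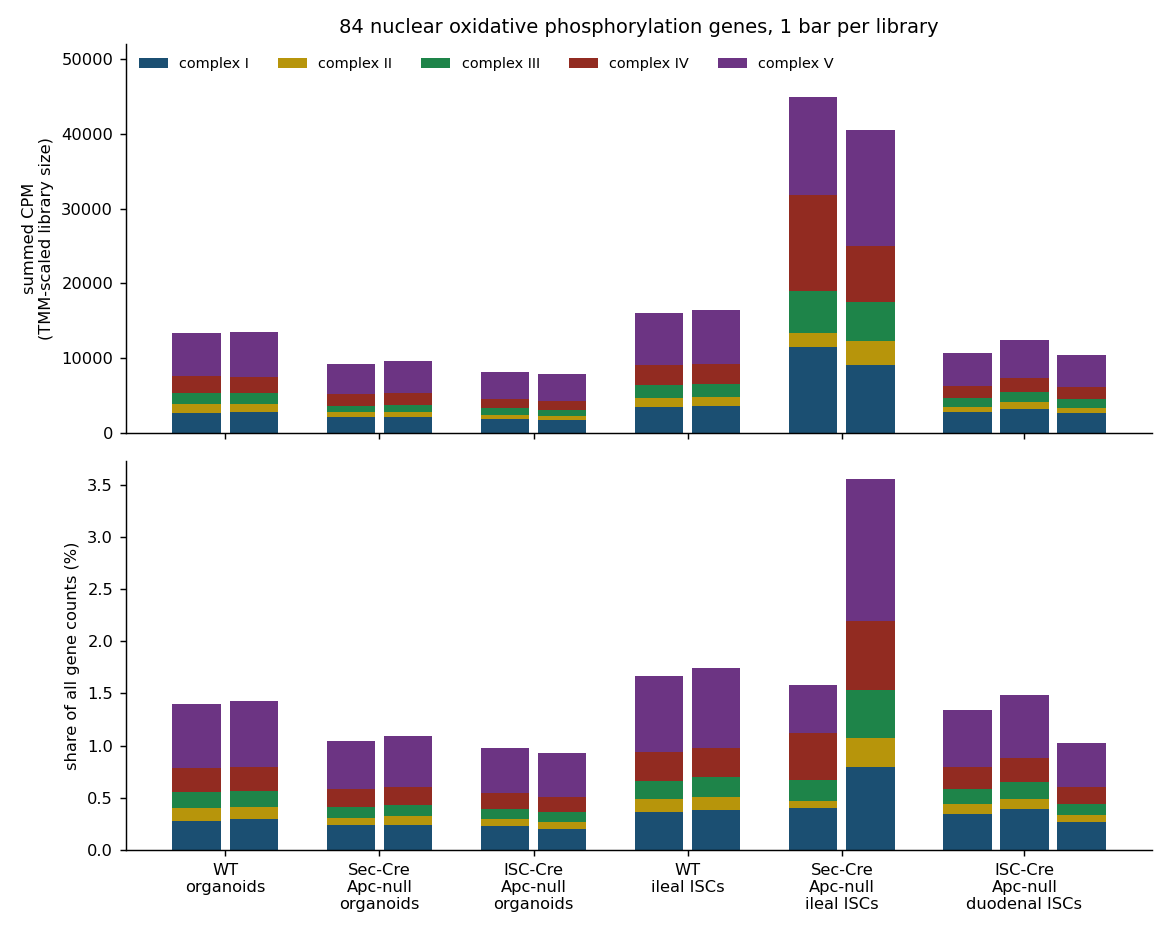
Summed level of the 84 members in each of the 13 libraries, stacked by complex in CPM on TMM-scaled library sizes, beside the members' share of all gene counts in percent. The 4 Apc-null organoid libraries lie below the WT organoids on both scales, while the Sec-Cre Apc-null ileal ISCs are highest in CPM and split around the WT ISCs in share of counts.

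Per kilobase of RNA, the most abundant member in 5 of the 6 groups was Atp5b, the catalytic beta subunit of the ATP synthase. Its mean was 967 CPM per kilobase in the WT organoids and 1179 in the WT ISCs. Atp5a1, the alpha subunit, came next in both of these groups, at 675 and 728 CPM per kilobase. In the Sec-Cre Apc-null ileal ISCs the order was another: Cox6a1, a small complex IV subunit, led at 3331 CPM per kilobase (4552 and 2110 in the replicates) and Uqcrq, a small complex III subunit, followed at 2579 (3750 and 1408), with Atp5b at 1844. Across the 78 tested members this group had the highest mean in 74, and the ISC-Cre Apc-null organoids had the lowest in 64.

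The comparison of Sec-Cre Apc-null with WT organoids asked what loss of Apc through the Atoh1 driver changed in culture. Of the 78 members, 45 fell and 1 rose (edgeR quasi-likelihood test, adjusted p under 0.05), where 16.3% of all 14208 tested genes fell and 16.7% rose. The median log2 fold change of the members was −0.49, against 0.05 for all genes. Each complex had members that fell: 16 of 36 in complex I, 4 of 4 in complex II, 5 of 8 in complex III, 10 of 13 in complex IV and 10 of 17 in complex V.

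In complex I, Ndufs7, which carries the last iron-sulfur cluster before ubiquinone, stood at 102 and 97.5 CPM in the WT organoids and at 51.0 and 52.1 CPM in the Sec-Cre Apc-null organoids. It fell by 1.00 ± 0.13 (SE) on the log2 scale (adjusted p = 0.00129). The accessory subunit Ndufa10 was at 183 and 179 CPM in the WT and at 109 and 104 CPM in the Apc-null libraries, a log2 fold change of −0.81 ± 0.12. Ndufa9 fell by a like amount, 0.80 ± 0.13. Of the other core subunits, Ndufs1, the largest, had a log2 fold change of −0.47 ± 0.13 (adjusted p = 0.0304) and Ndufv1, the NADH-binding subunit, one of −0.54 ± 0.13 (adjusted p = 0.0181). Ndufa1, a small membrane subunit, went the other way at 13.3 and 16.04 CPM in the WT and 22.0 and 23.5 CPM in the Apc-null libraries without passing the test (adjusted p = 0.0707). Ndufa4 gave a log2 fold change of −0.19 ± 0.17, which was not called.

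Complex II, succinate dehydrogenase, also sits in the citric acid cycle and was the complex in which each tested gene fell. Sdhb, the iron-sulfur subunit, was at 177 and 137 CPM in the WT organoids and at 75.8 and 84.8 CPM in the Sec-Cre Apc-null organoids, a log2 fold change of −1.02 ± 0.17 (adjusted p = 0.00393). Sdha, the flavoprotein that oxidises succinate, was at 617 and 517 CPM against 331 and 326 CPM (−0.84 ± 0.14). The membrane anchors Sdhc and Sdhd had log2 fold changes of −0.81 ± 0.14 and −0.74 ± 0.12. Both Apc-null libraries lay below both WT libraries for Sdhb and Sdha. In complex III, the core protein Uqcrc2 moved most, from 390.1 and 337 CPM in the WT to 180.3 and 193 CPM (−1.01 ± 0.13, adjusted p = 0.00118). The Rieske iron-sulfur protein Uqcrfs1 followed at −0.81 ± 0.13 and the hinge protein Uqcrh at −0.64 ± 0.12.

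In complex IV, Cox7a1 changed most. It is the heart and muscle form of a small subunit whose other form, Cox7a2, is made in most tissues. Cox7a1 had 194 and 170 counts in the WT organoids (13.6 and 7.55 CPM) and 7 and 17 counts in the Sec-Cre Apc-null organoids (0.295 and 0.671 CPM), a log2 fold change of −4.48 ± 0.64 (adjusted p = 0.00202). Cox7a2l, which helps join complexes III and IV, was at 253 and 234 CPM against 133 and 121 CPM (−0.99 ± 0.15, adjusted p = 0.00224). The common subunits fell by less: Cox4i1 by 0.64 ± 0.11, Cox6a1 by 0.62 ± 0.13 and Cox7a2 by 0.55 ± 0.16 on the log2 scale. Cox7c, at 99.0 and 92.6 CPM against 94.3 and 95.6 CPM, was not called (−0.06 ± 0.13).

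In complex V, the gamma subunit Atp5c1, the rotating shaft of the enzyme, was at 376 and 333 CPM in the WT and at 185 and 197 CPM in the Sec-Cre Apc-null organoids (−0.95 ± 0.13, adjusted p = 0.00149). The alpha subunit Atp5a1 was at 1666 and 1669 CPM against 1118 and 1141 CPM (−0.61 ± 0.11) and the beta subunit Atp5b at 1815 and 1891 CPM against 1309 and 1395 CPM (−0.51 ± 0.12). The most abundant members of the module thus fell together with those of lower level. Atp5k, the small e subunit that helps hold ATP synthase dimers together, was the member that rose. Its levels were 11.5 and 14.6 CPM in the WT and 23.3 and 26.9 CPM in the Sec-Cre Apc-null libraries (0.89 ± 0.21, adjusted p = 0.0163). That call was lost with 1 fit of all 13 libraries (adjusted p = 0.0966) and without either Sec-Cre Apc-null replicate (0.0609 without replicate 1 and 0.126 without replicate 2).

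The number that fell depended on the libraries and the fit. Fewer members were called when either Sec-Cre Apc-null replicate was left out, which leaves 1 library in that group. With 1 fit of all 13 libraries, 13 of the 78 members and 16.3% of all genes were called in either direction. Markers of differentiated cells moved in the same libraries: the 10 enterocyte markers summed to between 40.0 and 57.7 CPM in the 4 Apc-null organoid libraries and between 3372 and 4845 CPM in the WT organoids (Apoa4 was at 0 in the Sec-Cre Apc-null libraries), the 7 goblet markers to between 477 and 718 CPM against 4567 to 4893 CPM, and the 8 stromal and endothelial markers to between 284 and 721 CPM against 10.1 to 12.7 CPM, with Col1a1, Col3a1, Dcn, Pdgfra and Cdh5 at 0 in the WT organoids. Rn45s and Lars2, 2 transcripts used as a sign of ribosomal RNA carried into a library, summed to 11853 and 15905 CPM in the Sec-Cre Apc-null organoids, where both were called higher, to 2768 and 8632 CPM in the ISC-Cre Apc-null organoids and to 3751 and 4538 CPM in the WT. The part of these markers and transcripts in the members' lower level was not tested.

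ISC-Cre Apc-null organoids were compared with the same 2 WT organoid libraries, so both comparisons share their controls. Here 58 of the 78 members fell and 0 rose, where 18.5% of all tested genes fell and 19.3% rose, with a median log2 fold change of −0.74 against 0.03 for all genes. The 58 were 24 of 36 in complex I, 4 of 4 in complex II, 7 of 8 in complex III, 11 of 13 in complex IV and 12 of 17 in complex V. The members with the smallest adjusted p were Sdhd and Uqcrc2. Sdhd was at 225 and 227 CPM in the WT and at 101 and 90.6 CPM in the ISC-Cre Apc-null organoids (−1.27 ± 0.13, adjusted p = 0.00035), and Uqcrc2 was at 162 and 168 CPM in these organoids (−1.17 ± 0.13, adjusted p = 0.000535). In complex I, Ndufa9 was at 120.4 and 136 CPM in the WT and at 57.5 and 64.3 CPM (−1.11 ± 0.13). Cox7a2l fell by 1.18 ± 0.15 and Atp5g3, which encodes the c subunit of the rotor, by 0.91 ± 0.13 on the log2 scale.

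Cox7a1 again had the largest change in complex IV, with 13 and 5 counts in the ISC-Cre Apc-null organoids (−4.79 ± 0.66, adjusted p = 0.00141). Ndufa4l2, the paralogue of Ndufa4 known as a target of hypoxia-inducible factor, had 257 and 73 counts in the WT organoids, 0 and 6 in the Sec-Cre Apc-null organoids and 0 and 11 in the ISC-Cre Apc-null organoids. It was called lower in both (adjusted p = 0.0171 and 0.022), but it passed the low-count filter only through the WT libraries, where it was high. The 2 calls are therefore no independent support for a fall, though they count among the members said to fall. Its fitted fold change depends on the prior count and is not a measured size. Members without a call included Atp5k (10.95 and 11.6 CPM, −0.25 ± 0.21), Ndufa1 (0.02 ± 0.21), Atp5l (−0.21 ± 0.16) and Ndufa4 (−0.15 ± 0.17). With 1 fit of all 13 libraries 28 members were called, where 19.7% of all genes were called in either direction.

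Between Sec-Cre and ISC-Cre Apc-null organoids, the edgeR test called 0 of the 78 members, where 0.0422% of all tested genes were called in either direction. At an unadjusted p under 0.05 there were 23, but the share of all genes at that threshold is not given here. DESeq2 called 3 members, where it called 0.507% of all tested genes. The edgeR test therefore does not show that the 2 models gave equal levels. The fitted log2 differences, Sec-Cre minus ISC-Cre, were above 0 for 69 members, with a median of 0.20 against 0.00 for all genes. The highest was that of Atp5k, at 23.3 and 26.9 CPM against 10.95 and 11.6 CPM (1.13 ± 0.21, adjusted p = 0.483). Atp5g3, at 216 and 229 CPM against 138 and 149 CPM, and Sdhd, at 135 and 146 CPM against 101 and 90.6 CPM, had differences of 0.61 ± 0.13 and 0.53 ± 0.12 (adjusted p = 0.749 for both).

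**Figure D2:**
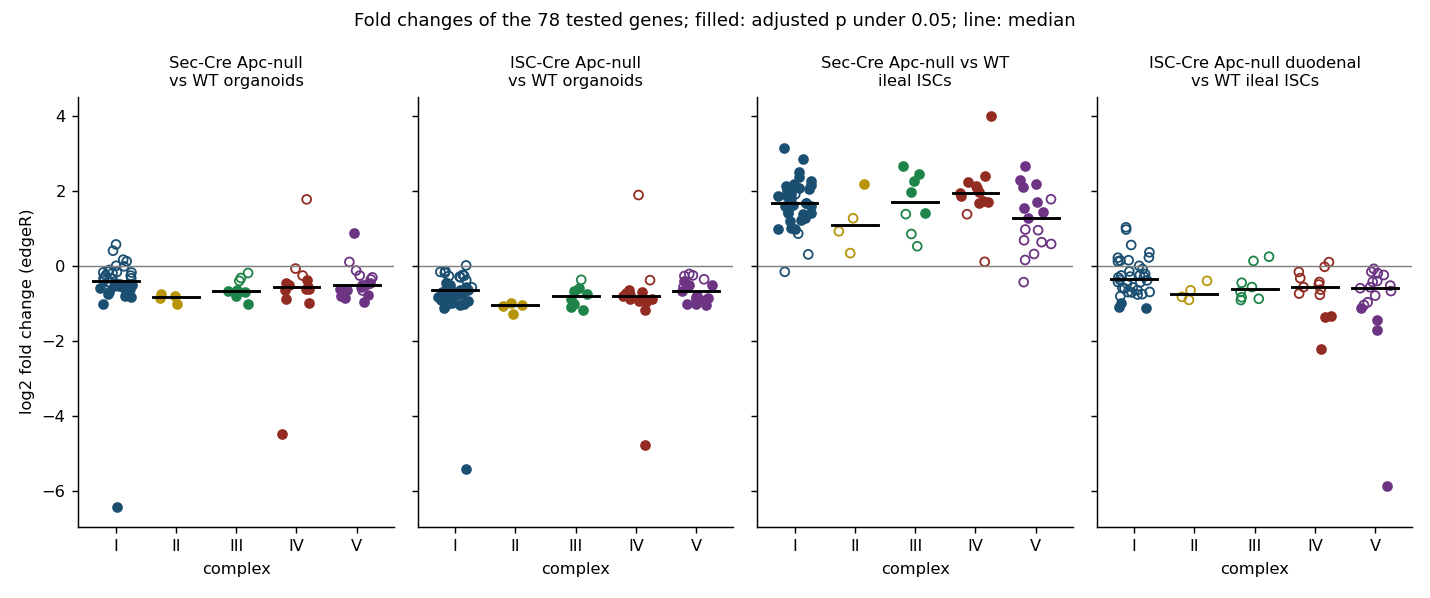
Log2 fold change of each of the 78 tested members against the WT of the same material, grouped by complex, in the 4 comparisons with WT; each point is a gene, filled where the adjusted p is under 0.05, and each line is the median of a complex. The points lie mostly below 0 in both organoid comparisons, mostly above 0 in the Sec-Cre Apc-null ileal ISCs and mostly below 0, with 10 filled points, in the duodenal ISCs.

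Sorted ileal ISCs of the Sec-Cre Apc-null mice differed from the WT ISCs in the direction opposite to the organoids. Of the 78 members 56 rose and 0 fell, where 9.62% of all 14577 tested genes rose and 6.96% fell, and the median log2 fold change was 1.70 against 0.00 for all genes. Of complex I 31 of 36 members rose, of complex II 1 of 4, of complex III 5 of 8, of complex IV 11 of 13 and of complex V 8 of 17. The median by complex was lowest in complex II (1.11) and highest in complex IV (1.96).

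Ndufa1 had the largest rise in complex I. It was at 30.7 and 36.9 CPM in the WT ISCs and at 421 and 180.2 CPM in the Sec-Cre Apc-null ISCs (3.15 ± 0.48, adjusted p = 0.00563). Ndufs7 was at 131 and 128 CPM against 526 and 423 CPM (1.87 ± 0.34). The long core subunit Ndufs1, at 132 and 142 CPM against 79.5 and 167 CPM, was not called, and its replicates lay on either side of the WT. In complex II, Sdhb was the member that rose, from 187 and 195 CPM to 913 and 841 CPM (2.20 ± 0.30, adjusted p = 0.00412). Sdha was at 572 and 524 CPM in the WT ISCs, at 363 CPM in replicate 1 and at 1037 CPM in replicate 2 of the Sec-Cre Apc-null ISCs, so its replicates lay on either side of the WT.

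Uqcrq of complex III, a small accessory subunit, was at 191 and 191 CPM in the WT ISCs and at 1519 and 570.3 CPM in the Sec-Cre Apc-null ISCs (2.45 ± 0.49, adjusted p = 0.0136). The core proteins Uqcrc1 (adjusted p = 0.0577) and Uqcrc2 (adjusted p = 0.253) were not called. In complex IV, Cox7a1 had 123 and 231 counts in the WT ISCs (7.62 and 11.7 CPM) and 949 and 3123 counts in the Sec-Cre Apc-null ISCs (234 and 78.4 CPM), a log2 fold change of 4.01 ± 0.69 (adjusted p = 0.00829). Cox6b1, a subunit facing the space between the mitochondrial membranes, was at 203 and 205 CPM against 1383 and 773 CPM (2.40 ± 0.38). Cox6a1 rose by 2.25 ± 0.44 and Cox4i1 by 1.73 ± 0.36. Cox7a2l, at 119.7 and 168 CPM against 179 and 134 CPM, was not called and its groups overlapped.

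In complex V the short e subunit Atp5k was at 44.3 and 44.2 CPM in the WT ISCs and at 371 and 196 CPM in the Sec-Cre Apc-null ISCs (2.68 ± 0.45, adjusted p = 0.00741). Atp5g1 was at 180.1 and 178 CPM against 1046 and 599 CPM (2.20 ± 0.41). The catalytic subunits were not called: Atp5a1 was at 1809 and 1789.9 CPM in the WT ISCs against 918 and 3136 CPM, and Atp5b at 2237 and 2279 CPM against 2354 and 4711 CPM. Atp5g2 was the member below both WT ISC libraries in each Sec-Cre Apc-null replicate, at 108 and 66.8 CPM against 123 and 112 CPM, and was not called (−0.43 ± 0.31).

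RNA length went with the size of the change. Members of at most 738 nucleotides had a median log2 fold change of 1.99, with 32 of 36 called higher, and longer ones a median of 1.40, with 24 of 42 called higher. Across the 78 members the Spearman correlation of fold change with RNA length was −0.63, a description over genes of the same libraries. Other genes showed the same kind of order: 32.4% of the 296 tested genes of at most 738 nucleotides rose, with a median of 1.42, against 9.14% of the 11363 longer ones, with a median of −0.01. Within replicate 1 the short members had a median log2 ratio to the WT mean of 2.33 and the long ones 1.27; the long members Atp5a1, Ndufs1, Sdha and Uqcrfs1 were below both WT libraries there. In replicate 2 the medians were 1.63 and 1.27, and 41 of the 42 long members were above both WT libraries. The other genes over 738 nucleotides had a median of 0 there, but they were not matched to the members in length. In the fit of both replicates, other genes of 700 to 1000 nucleotides had a median of 1.10. Those of 2000 to 2800 nucleotides had a median of 0.04. The part of RNA length in the members' higher level was not tested.

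**Figure D3:**
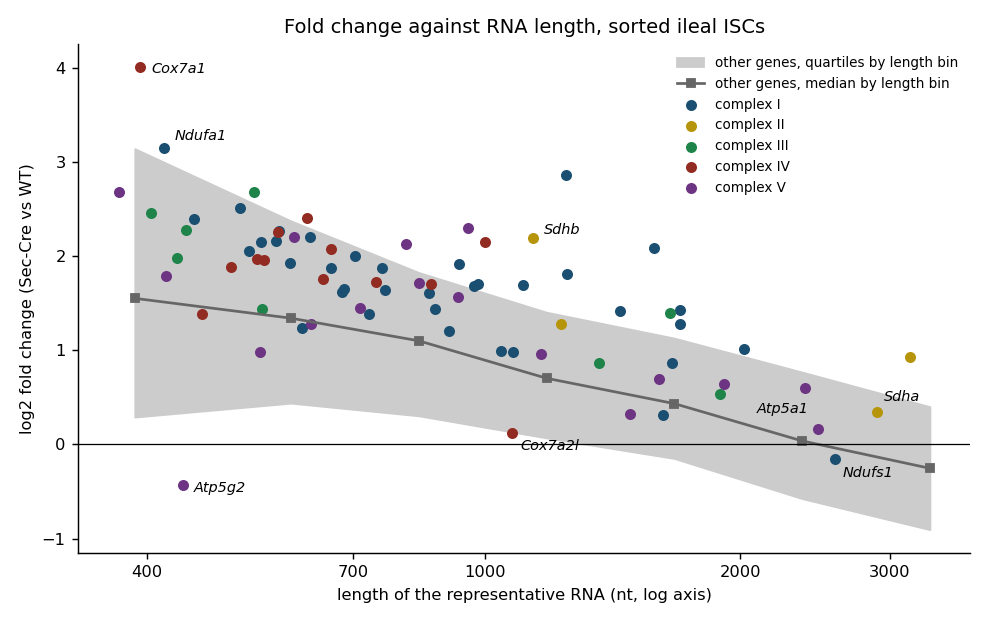
Log2 fold change, Sec-Cre Apc-null against WT ileal ISCs, of each tested member (points) by RNA length in nucleotides on a log axis, beside the median and quartiles of other genes in bins of length. Members of at most 738 nucleotides lie around a median of 1.99 and longer ones around 1.40, while the binned medians of the other genes go from 1.55 in the shortest bin to −0.25 in the longest.

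Several properties of the 2 Sec-Cre Apc-null ISC libraries moved with this result. The 10 enterocyte markers summed to 45310 CPM in replicate 1 and 23004 CPM in replicate 2, against 690.0 to 762 CPM in the WT ISCs, and all 10 were called higher. The 9 Paneth markers summed to 727302 CPM in replicate 1, which was 25.6% of its counts, and to 14628 CPM in replicate 2, against 20926 to 21814 CPM in the WT ISCs. Proliferation markers were at 395 to 531 CPM against 1638 to 1689 CPM, and immune markers at 3031 to 3367 CPM against 972 to 1168 CPM. No defining marker of these lists was at 0 in either group. Rn45s and Lars2 took 19.0% of the counts of replicate 1 and 3.71% of replicate 2, against 0.585% to 0.629% in the WT ISCs. Their part in the members' higher level was not tested.

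Without TMM scaling, 3 of the 78 members were called and their median was 0.81. Of all tested genes 9.36% were called in either direction under that setting, a larger share than among the members. The median of all genes moved to −0.71. Without Sec-Cre Apc-null replicate 1, 59 members were called with a median of 1.41, and without replicate 2, 59 with a median of 1.93. Without WT ISC replicate 1 or replicate 2, no member was called by the edgeR test, the calls over all genes falling from 2417 to 272 and 153. The medians of the members were then 1.66 and 1.75, against 0.04 and 0 for all genes. The lone WT library is then assumed to vary like the other groups.

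The ISC-Cre Apc-null duodenal ISCs were set against the WT ileal ISCs, the control of the sorted cells. Region of the gut, day after induction, digestion and the strand type of the library differ together with the genotype here, and their effects cannot be told apart. Of the 78 members 10 fell and 0 rose, where 8.84% of all tested genes fell and 10.2% rose, and the median was −0.51 against 0.07 for all genes. The 10 were Ndufa9, Ndufa12 and Ndufs7 of complex I, Cox6a1, Cox7a1 and Cox7c of complex IV, and Atp5d, Atp5g1, Atp5g2 and Atp5l of complex V. Of the members, 65 had a log2 fold change below 0.

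Atp5l, which encodes the g subunit beside Atp5k in the membrane part of the ATP synthase, had 1318 and 1835 counts in the WT ISCs (81.6 and 92.9 CPM) and 46, 56 and 26 counts in the duodenal ISCs (1.48, 1.71 and 1.23 CPM). Its log2 fold change was −5.87 ± 0.32 (adjusted p = 0.000138), and it was between 61.2 and 206 CPM in the 10 libraries that were not duodenal. Atp5l shares 85.4% of its words with the gene model Gm10221, and 12.9% to 17.0% of the reads of the duodenal libraries mapped to several places against 5.20% to 5.76% in the WT ISCs; their part in the low count was not tested. Atp5g2, whose words are all shared, was at 123 and 112 CPM in the WT ISCs against 33.0, 34.3 and 41.0 CPM (−1.70 ± 0.28, adjusted p = 0.00427). Among members with little shared sequence, Cox7a1 was at 3.23, 2.01 and 0.945 CPM (−2.21 ± 0.58, adjusted p = 0.0308) and Ndufs7 at 61.8, 75.7 and 44.6 CPM against 131 and 128 CPM (−1.09 ± 0.29, adjusted p = 0.0345). Of the 52 members with at most 20% shared words 4 were called.

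The count in this comparison moved with the setting. It was 2 or 3 when any of the 5 libraries was left out, 2 with the replicate number as a block or without TMM scaling, 24 with 1 fit of all 13 libraries and 48 with library quality weights, of which 2 were higher and 46 lower. The calls over all genes moved too, from 19.1% of tested genes to 29.1% with 1 fit of all libraries and 50.6% with the weights. They were 11.5% with the block and 10.7% without TMM scaling. Without duodenal replicate 1, 2 or 3 they were 9.64%, 10.2% and 15.4%. Replicate 3 of the duodenal ISCs stood apart: Rn45s and Lars2 took 5.35% of its counts, against 0.391% and 0.291% in replicates 1 and 2 and 0.585% to 0.629% in the WT ISCs, and its library weight was 0.255, the lowest of the 7 sorted-cell libraries. Without it 3 members were called. Stromal and endothelial markers summed to between 453 and 669 CPM in the duodenal ISCs, against 10.6 to 14.4 CPM in the WT ISCs, where Col1a1, Col1a2, Col3a1 and Cdh5 were at 0; their part in the members' level was not tested. Goblet markers went the other way, at 715 to 1196 CPM against 13899.7 to 15821 CPM.

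Set against the Sec-Cre Apc-null ileal ISCs, the duodenal ISCs were lower in 68 of the 78 members and higher in 0, where 19.8% of all tested genes were lower and 21% higher, with a median of −2.24 against 0.12 for all genes. Members without a call included Ndufa4l2, Ndufa6, Ndufa7, Ndufs1, Sdha, Cox6b2, Cox7a2l, Atp5a1 and Atp5s. Sdhb, for example, was at 111, 127 and 129 CPM in the duodenal ISCs and at 913 and 841 CPM in the Sec-Cre Apc-null ileal ISCs. The comparison holds the libraries and the confounded factors named above. Without TMM scaling 36 members were called with a median of −1.26, where 34.8% of all tested genes were called in either direction.

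Between WT organoids and WT ileal ISCs few of these genes were called. In the fit of all 13 libraries 1 member was called, Atp5k, at 11.5 and 14.6 CPM in the organoids and 44.3 and 44.2 CPM in the ISCs (−1.76, organoids minus ISCs, adjusted p = 0.0178), where 1.89% of all 15208 tested genes were lower in the organoids and 1.98% higher. The median difference was −0.37 against 0.00 for all genes. The call of Atp5k was lost when any of the 4 libraries was left out, which leaves 1 library in a group, or TMM scaling was dropped. Over the left-out libraries its log2 difference lay between −1.94 and −1.60. Library weights gave 12 calls and DESeq2 gave 5, where 9.26% and 7.85% of all tested genes were called.

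An interaction term in the fit of all 13 libraries asked whether loss of Apc through the Atoh1 driver had a different effect in the 2 materials. The effect was lower in the organoids for 67 of the 78 members and higher for 0, where 13% of all genes were lower and 13.4% higher, and the median difference was −2.003 against 0.16 for all genes. The 67 were 33 of 36 in complex I, 3 of 4 in complex II, 8 of 8 in complex III, 12 of 13 in complex IV and 11 of 17 in complex V. Sdhb, which fell in the organoids and rose in the ISCs, had a difference of −3.17 ± 0.31 (adjusted p = 3.4e-05), and Cox7a1 one of −8.43 ± 0.98 (adjusted p = 0.000114). Members without a call included Ndufs1, Ndufa2, Sdha, Cox6b2, Atp5a1, Atp5b, Atp5e, Atp5g2, Atp5s and Atp5sl, so the catalytic subunits of the ATP synthase and the succinate-oxidising subunit were among them. The difference rests on the same 2 Sec-Cre Apc-null ISC libraries with their markers and scaling. Without TMM scaling 15 of the 78 members were called, where 23.5% of all tested genes were called in either direction. The median of the members was then −1.03.

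Several subunits come in tissue forms, and the share of each form was computed from levels per kilobase. Cox7a1 made up 12.1% to 16.03% of Cox7a1 plus Cox7a2 in the WT organoids and 0.666% to 1.48% in the 4 Apc-null organoid libraries. In the sorted cells it was 9.58% to 11.9% in the WT ISCs, 35.6% and 24.3% in the Sec-Cre Apc-null ISCs, and 2.15% to 5.86% in the duodenal ISCs. The 6 markers of striated muscle and brown fat, tissues known for Cox7a1, summed to between 0 and 0.527 CPM in the Sec-Cre Apc-null ISCs with Ckm, Myh7, Actc1 and Ucp1 at 0, and between 0 and 0.124 CPM in the WT ISCs. They summed to between 3.19 and 5.91 CPM in the duodenal ISCs, where Cox7a1 itself was at 0.945 to 3.23 CPM, and 1 of the 2 markers tested was called higher there than in the WT ISCs. In the organoids they summed to between 0.444 and 2.18 CPM in the WT and between 1.14 and 2.199 CPM in the 4 Apc-null libraries, with 1 of 2 tested called higher in each Apc-null group. Their part in the share of Cox7a1 was not tested.

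Cox4i2 and Cox6a2, the lung and muscle forms of their subunits, never exceeded 0.196% and 0.108% of their pair. Cox6b2, the testis form, made up 0.644% to 6.11% of its pair and was not called in any of the 4 comparisons with WT. The 3 genes Atp5g1, Atp5g2 and Atp5g3 encode the same mature c subunit of the ATP synthase. Atp5g2 made up 32.8% to 43.3% of their sum in the organoids, 21.3% to 23.6% in the WT ISCs, 4.93% and 7.06% in the Sec-Cre Apc-null ISCs and 12.02% to 20.1% in the duodenal ISCs, where Atp5g3 reached 63.1% to 66.3%. The shared sequence of Atp5g2 makes its own share uncertain.

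**Figure D4:**
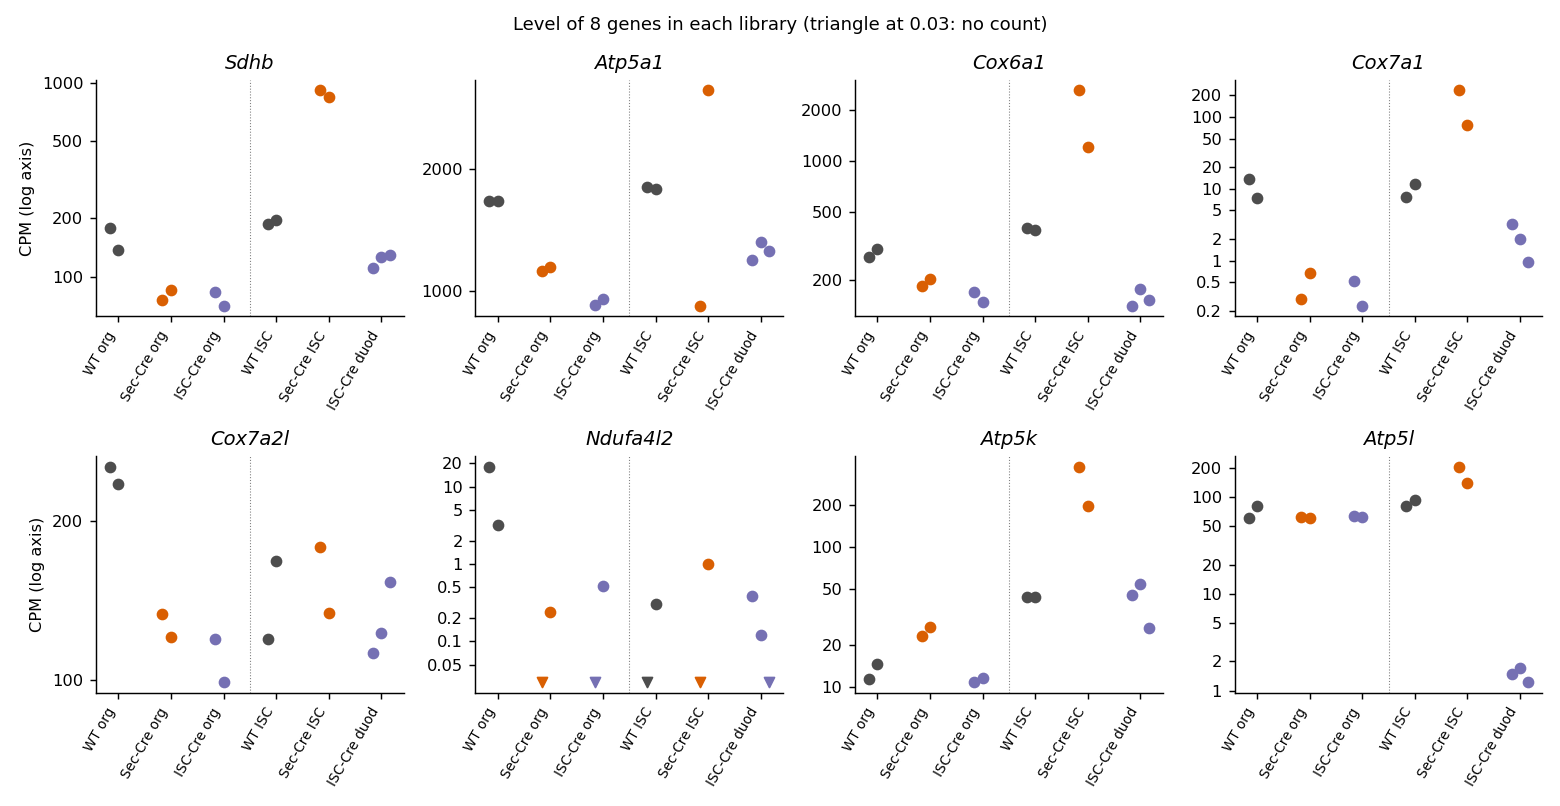
CPM of 8 members (Sdhb, Atp5a1, Cox6a1, Cox7a1, Cox7a2l, Ndufa4l2, Atp5k and Atp5l) in each library, by group, on a log axis, with triangles at the lower edge for libraries without a count. Cox7a1 is lowest in the Apc-null organoids and highest in the Sec-Cre Apc-null ileal ISCs, Atp5l is at 1.23 to 1.71 CPM in the 3 duodenal libraries and at 61.2 CPM or more in the others, and Cox7a2l stays between 99.4 and 253 CPM in all 13.

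Genes that feed or build the respiratory chain were counted from lists by function. The shares of all tested genes to set these counts against were 16.3% lower and 16.7% higher in the Sec-Cre Apc-null organoids, 18.5% and 19.3% in the ISC-Cre Apc-null organoids, 6.96% and 9.62% in the Sec-Cre Apc-null ileal ISCs, and 8.84% and 10.2% in the duodenal ISCs. Of 17 tested electron carriers and other entry points to the chain, 10 fell and 2 rose in the Sec-Cre Apc-null organoids, 12 fell and 2 rose in the ISC-Cre Apc-null organoids, 5 rose in the Sec-Cre Apc-null ileal ISCs and 6 fell in the duodenal ISCs, with medians of −0.68, −0.89, 0.55 and −0.67. Cycs, cytochrome c itself, was at 101 and 116 CPM in the WT ISCs, at 461 and 418 CPM in the Sec-Cre Apc-null ISCs (2.01 ± 0.29, adjusted p = 0.00488) and at 21.4, 27.3 and 21.1 CPM in the duodenal ISCs (−2.22 ± 0.25, adjusted p = 0.001). Of 19 genes of pyruvate dehydrogenase and the citric acid cycle, 11 and 12 fell in the 2 organoid comparisons, 2 rose in the Sec-Cre Apc-null ISCs and 3 fell in the duodenal ISCs. Suclg1, a subunit of the succinyl-CoA ligase that yields succinate, was at 229 and 221 CPM in the WT organoids and at 88.4 and 97.8 CPM in the Sec-Cre Apc-null organoids (−1.33 ± 0.12, adjusted p = 0.0003).

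Of 40 tested assembly factors, which build the complexes but are not part of them, 7 fell and 1 rose in the Sec-Cre Apc-null organoids and 13 fell in the ISC-Cre Apc-null organoids, while 5 rose and 1 fell in the Sec-Cre Apc-null ISCs and 4 fell and 1 rose in the duodenal ISCs. The 17.5% that fell in the Sec-Cre Apc-null organoids, the 12.5% that rose in the Sec-Cre Apc-null ISCs and the 10% that fell in the duodenal ISCs were near the shares of all tested genes, and 32.5% fell in the ISC-Cre Apc-null organoids. Of 77 mitochondrial ribosomal protein genes, 12 and 22 fell in the organoid comparisons with 1 higher in each, 22 rose in the Sec-Cre Apc-null ISCs (median 0.87) and 9 fell in the duodenal ISCs. Their shares were near those of all genes in the Sec-Cre Apc-null organoids (15.6% lower) and the duodenal ISCs (11.7% lower). Of the cytosolic ribosomal protein genes, 52 and 63 of 80 fell in the organoid comparisons, with 4 and 1 higher, but in the Sec-Cre Apc-null ISCs 5 of 81 fell and 1 rose, with a median of −0.65. Of the 8 tested ATP/ADP and phosphate carriers and porins, 4 and 6 fell in the organoids with 1 higher in each, and 2 rose in the Sec-Cre Apc-null ISCs; in the duodenal ISCs 2 fell and 1 rose.

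In the list of 12 genes of pyruvate and lactate handling, 5 fell and 3 rose in each organoid comparison, 5 rose in the Sec-Cre Apc-null ISCs and 2 rose in the duodenal ISCs. Pdk4, a kinase that switches pyruvate dehydrogenase off, was at 0.211 and 0.444 CPM in the WT organoids, at 12.5 and 8.28 CPM in the Sec-Cre Apc-null organoids (4.83 ± 0.44, adjusted p = 0.000284) and at 17.1 and 22.2 CPM in the ISC-Cre Apc-null organoids (5.77 ± 0.45, adjusted p = 0.000125). In the organoid fit it passed the low-count filter only through the Apc-null libraries, where it was high. Its organoid calls are therefore no independent support for a rise, though they count among the genes said to rise. In the sorted cells Pdk4 was at 121, 78.9 and 109 CPM in the duodenal ISCs against 0.929 and 4.25 CPM in the WT ISCs (5.29 ± 0.77, adjusted p = 0.00269). Its family member Pdk2 moved the other way in the organoids, from 67.6 and 49.9 CPM to 15.2 and 12.9 CPM in the Sec-Cre Apc-null libraries (−2.11 ± 0.22), and was higher in the Sec-Cre Apc-null ISCs (2.34 ± 0.30).

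Of 18 tested regulators of mitochondrial biogenesis, 4 fell in each organoid comparison, 1 rose and 1 fell in the Sec-Cre Apc-null ISCs and 3 fell in the duodenal ISCs. Esrra, a nuclear receptor that drives respiratory genes, was at 122 and 120.1 CPM in the WT organoids, at 63.0 and 72.6 CPM in the Sec-Cre Apc-null (−0.89 ± 0.15) and at 54.9 and 47.1 CPM in the ISC-Cre Apc-null organoids (−1.28 ± 0.15). Its coactivator Ppargc1b fell by 1.63 ± 0.28 and 2.23 ± 0.28 in the same comparisons. Ppargc1a, the related coactivator, was at 16.7 and 9.22 CPM in the WT ISCs and at 111 and 112 CPM in the Sec-Cre Apc-null ISCs (3.11 ± 0.54, adjusted p = 0.00877). In the duodenal ISCs Esrra was at 52.6, 58.8 and 32.2 CPM against 174 and 183 CPM in the WT ISCs (−1.89 ± 0.36, adjusted p = 0.00832).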

How the data were processed

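Bulk polyA RNA-seq was measured in 13 libraries of 6 groups. The deposited values were whole-number gene counts, 1 table per library, with a column for both strands together, which was used here; the submitters' processing notes name the aligner STAR without a version, DESeq2 1.22.2 and the build mm10, and the gene annotation behind the counts is not given in the sources used here. Low counts were removed with filterByExpr (minimum 10), TMM factors were applied to library sizes, and the quasi-likelihood test of edgeR 4.0.16 (R 4.3.3) was used, with Benjamini-Hochberg adjustment over all genes of a fit and a threshold of 0.05. The organoids (6 libraries, 14208 genes) and the ISCs (7 libraries, 14577 genes) were fitted apart, and contrasts across materials in 1 fit of all 13 libraries (15208 genes). Printed CPM levels were scaled over all 13 libraries, so they can differ slightly from the within-material fold changes. SE values belong to log2 fold changes from the fit, with a prior count of 0.125. RNA lengths and shared 31-base words came from the GENCODE annotation of GRCm38.

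Named members were the 3 with the smallest adjusted p in each complex per comparison, a set of core and isoform genes, and from the lists of related genes the called members with the smallest adjusted p; other genes printed were chosen after their values were seen. The symbol pattern of the cytosolic ribosomal protein list was narrowed after seeing the data, to leave out S6 kinase genes and a binding protein. Not every member's own values are reported here. The members and lists were chosen with earlier results of these data known. Alternatives were DESeq2 1.42.0, RLE scaling, no filter, a replicate block, 1 fit of all libraries, limma 3.58.1 library weights, the second-strand column and leaving out each library; no TMM scaling and the restriction to members with at most 20% shared words were added after seeing the data. The pipeline was tested on simulated data. No replicate pair looked like a copy (chi-square over genes divided by its degrees of freedom, 18.9 to 1655). Total counts of 11524335 to 45516228 per library set the precision of low members, whose floors cover counting error only.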

Additional observations from a re-analysis of the deposited data

Results flagged for a closer look

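The effect of Sec-Cre Apc loss differed between organoids and ileal ISCs in 67 of the 78 tested members by the edgeR interaction test, where 13% of all genes had a lower effect in the organoids. The named members among them are given here as log2 differences, organoids minus ISCs. In complex I they were −2.82 for Ndufs7, −2.46 for Ndufb9, −2.02 for Ndufb10, −1.36 for Ndufv1, −1.37 for Ndufa4 and −8.41 for Ndufa4l2, whose size depends on the prior count. In complex II they were −3.17 for Sdhb, −1.98 for Sdhd and −1.69 for Sdhc. Complex III gave −3.02 for Uqcrb, −2.24 for Uqcr10, −2.02 for Uqcrh, −2.01 for Uqcrc1 and −1.62 for Uqcrfs1. The widest range was that of complex IV, with −8.43 for Cox7a1, −2.82 for Cox6a1, −2.80 for Cox6b1, −2.70 for Cox6c, −2.70 for Cox7b, −2.57 for Cox7a2, −2.39 for Cox8a, −2.31 for Cox4i1, −2.08 for Cox5a and −1.06 for Cox7a2l. Complex V gave −2.71 for Atp5g1, −2.45 for Atp5o, −2.28 for Atp5d, −2.09 for Atp5h and −1.70 for Atp5g3. Without TMM scaling 15 of the 78 members were called, where 23.5% of all tested genes were called in either direction. The enterocyte markers, which moved down in the organoids and up in the ISCs, are the values given with the 2 comparisons, and their part in the difference was not tested.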

How the results depend on the processing

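No median over the members changed sign under an alternative, and no called value of a named member did. Without TMM scaling, 29 members were called in Sec-Cre Apc-null against WT organoids (median −0.32), the median was −0.53 in ISC-Cre Apc-null against WT organoids and 0.16 between the 2 Apc-null organoid groups, and 3 were called in Sec-Cre Apc-null against WT ileal ISCs (0.81), 2 in duodenal against WT ileal ISCs, 36 in duodenal against Sec-Cre Apc-null ileal ISCs (−1.26), 0 in WT organoids against WT ISCs by edgeR (5 by DESeq2) and 15 in the interaction (−1.03). That setting moved the median of all genes to 0.21, 0.24, −0.04, −0.71, 0.19, 0.98, 0 and 1.00 in the same order. With it edgeR called 36.1%, 40.4%, 0.0563%, 9.36%, 10.7%, 34.8%, 1.85% and 23.5% of all tested genes, again in that order. Plain CPM gave mean summed levels of 14142 in WT, 10695 in Sec-Cre and 9528 in ISC-Cre organoids and 17028 in WT, 25669 in Sec-Cre and 12827 in duodenal ISCs, and median levels per kilobase of 117, 94.4, 81.1, 139, 244 and 119 in that order. With 1 fit of all 13 libraries 13 members (median −0.44) and 28 were called in the Sec-Cre and ISC-Cre organoid comparisons with WT and 24 in the duodenal one with WT. Of all genes 16.3%, 19.7% and 29.1% were called there, in the same order. DESeq2 called 3 between the Apc-null organoid groups and 5 between WT organoids and WT ISCs, where library weights called 12. The shares of all genes called were 0.507%, 7.85% and 9.26% in that order. With weights 48 were called in the duodenal comparison with WT, where 50.6% of all genes were called. No filter on low counts gave a median of 0.25 between the Apc-null organoid groups. Members with at most 20% shared words gave medians of −0.53 in the Sec-Cre organoids and −2.01 in duodenal against Sec-Cre ISCs, 4 calls in the duodenal comparison with WT and 0 between the WT groups by edgeR (12 at an unadjusted p under 0.05). The share of all genes at that unadjusted threshold is not given here.

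Leaving out each library in turn gave 19 to 40 calls in the Sec-Cre organoids, a median of −0.80 to −0.70 in the ISC-Cre organoids, a median of 0.16 to 0.30 between them, 0 to 59 calls with a median of 1.41 to 1.93 in Sec-Cre Apc-null against WT ISCs, 2 to 3 calls in the duodenal comparison with WT, a median of −2.32 to −1.92 in duodenal against Sec-Cre ISCs, 0 calls between the WT groups, and a median of −2.24 to −1.86 in the interaction. Replicate numbers did not pair the samples: correlations of same-numbered deviations lay between −0.10 and 0.07. With the replicate number as a block, 39, 53, 0, 54, 2, 67, 1 and 69 members were called in the 8 comparisons in the order above. Of all tested genes 28.5%, 33.2%, 0.0282%, 16.9%, 11.5%, 30.9%, 4.1% and 30.5% were called, in the same order. The depth of the smallest library limits members below about 0.26 CPM on plain library sizes, and its scaling factor of 0.352 raises that level in the printed CPM. Having 2 libraries a group limits every call. The calls over all genes also moved when a library was left out, so those member counts do not speak of the members alone. Why calls were lost without single libraries was not tested.

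Of the values of single members under the alternatives, 2392 kept direction and call, 280 lost the call, 47 gained it and 63 changed sign. The 63 belong to 29 log2 fold changes that had no call, and none of the 63 was called under the alternative. Most changed sign when 1 library was left out, with these ranges over the libraries. In Sec-Cre Apc-null against WT organoids it was Ndufa4 (−0.35 to 0.0050). In ISC-Cre Apc-null against WT organoids it was Ndufa4 (−0.36 to 0.037). In the 2 Apc-null organoid groups these were Cox6b2 (−1.15 to 0.48), Cox7a1 (−0.40 to 1.02), Ndufa4 (−0.21 to 0.18), Ndufa4l2 (−5.43 to 4.47), Atp5g2 (−0.023 to 0.040), Ndufs1 (−0.013 to 0.18), Sdhb (−0.079 to 0.19) and Uqcrc1 (−0.027 to 0.19). In Sec-Cre Apc-null against WT ISCs these were Cox7a2l (−0.13 to 0.39), Ndufs1 (−0.78 to 0.26), Sdha (−0.59 to 0.89), Uqcrfs1 (−0.093 to 1.41) and Atp5a1 (−0.97 to 0.77). In duodenal against WT ISCs these were Cox6b1 (−0.072 to 0.053), Cox6b2 (−0.013 to 0.26), Cox7a2l (−0.37 to 0.13) and Ndufa4l2 (−0.76 to 5.14). In duodenal against Sec-Cre ISCs these were Ndufs1 (−0.83 to 0.21) and Atp5a1 (−1.29 to 0.45). In WT organoids against WT ISCs these were Cox7a1 (−0.35 to 0.50), Sdha (−0.082 to 0.17) and Uqcrfs1 (−0.21 to 0.0059). In the interaction these were Cox6b2 (−0.56 to 1.25), Atp5g2 (−0.40 to 0.36), Ndufs1 (−0.73 to 0.28) and Atp5a1 (−1.38 to 0.32). The sign of Ndufs1 in Sec-Cre Apc-null against WT ISCs turned without Sec-Cre replicate 1, and those of Sdha, Uqcrfs1 and Atp5a1 without replicate 2. Without TMM scaling, Ndufa4 was 0.054 in ISC-Cre Apc-null against WT organoids, Atp5g2 was −0.039 in the 2 Apc-null organoid groups, Cox7a2l was −0.75, Sdha was −0.15 and Atp5a1 was −0.30 in Sec-Cre Apc-null against WT ISCs, Cox6b1 was 0.10 in duodenal against WT ISCs, Cox7a2l was 0.70 and Ndufs1 was 0.28 in duodenal against Sec-Cre ISCs and Atp5g2 was 1.03 and Ndufs1 was 0.41 in the interaction. By DESeq2, Atp5g2 was −0.019 in the 2 Apc-null organoid groups and Cox6b1 was 0.032 in duodenal against WT ISCs. With RLE scaling, Atp5g2 was −0.018 in the 2 Apc-null organoid groups and Cox6b1 was 0.032 in duodenal against WT ISCs. With the replicate block, Atp5a1 was −0.011 in Sec-Cre Apc-null against WT ISCs and Atp5g2 was 0.011 in the interaction. With library weights, Atp5a1 was −0.22 in Sec-Cre Apc-null against WT ISCs, Cox7a1 was −0.045 in WT organoids against WT ISCs and Atp5g2 was 0.15 in the interaction. Without the filter, Cox6b1 was 0.0032 in duodenal against WT ISCs. Why these signs changed was not tested.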
